A study of Mus musculus with 7 samples.

Results

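Open chromatin was examined at 36 genes of the cell cycle and of DNA replication, out of 21631 protein-coding genes on chromosomes 1 to 19 and X. The genes were taken from a fixed list, and a peak belonged to a gene when its summit lay in the gene body or when that gene was the nearest within 50 kb. By this rule the 36 genes held 131 of the 103809 open regions of the series. They were grouped by role into proliferation markers (Mki67 and Top2a), cyclins and cyclin-dependent kinases (Ccna2, Ccnb1, Ccnb2, Ccne1, Ccne2, Cdk1 and Cdk2), replication genes (Mcm2 to Mcm7, Cdc6, Cdt1, Gins1 and Pcna), nucleotide supply (Rrm1, Rrm2 and Tyms), mitosis (Aurka, Aurkb, Birc5, Bub1, Cdc20 and Plk1), transcription factors (E2f1, E2f2, E2f3 and Foxm1) and checkpoint or phosphatase genes (Chek1, Wee1, Cdc25a and Cdc25c).

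The libraries came from intestinal stem cells that carry the receptor Lgr5 and were sorted by its GFP reporter 7 days after bone marrow transplantation. Hosts of both groups were lethally irradiated female B6-GFP-Lgr5 mice of 8 to 12 weeks. The Syn group (3 libraries) received syngeneic marrow, and the Allo group (4 libraries) received marrow from BALB/c donors, a mismatch that can lead to graft-versus-host disease. Every library was made from 50000 sorted cells of a separate pool of 3 to 4 mice by Omni-ATAC-seq, in which the Tn5 transposase cuts open DNA. All hosts were transplanted and irradiated, so values from undisturbed stem cells are not part of the comparison.

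A cell commits to division when cyclins activate their kinases and the retinoblastoma protein lets go of E2F factors, which then switch on genes that license and copy DNA. Genes of mitosis come later, through a complex of B-MYB and MuvB proteins with FOXM1, which acts at a short promoter element known as the CHR. The factor NF-Y, which binds CCAAT, sits at many promoters of both waves. Stem cells at the crypt base divide often and renew the intestinal lining, and irradiation stops the cycle through checkpoint kinases.

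The promoters hold letters that match these elements. 6 windows are printed because they hold the clearest cases or the genes whose libraries separated below, each reading from 250 bases before to 30 bases after the RefSeq start in build GRCm38.p6. They lie at chr11:99024160-99024439, minus strand (Top2a), chr10:69352883-69353162, minus strand (Cdk1), chr10:128705022-128705301, minus strand (Cdk2), chr8:75109259-75109538, plus strand (Mcm5), chr1:128359676-128359955, minus strand (Mcm6) and chr4:118437314-118437593, minus strand (Cdc20). Capitals mark E2F letters (TTTCGCGC, TTTGGCGC or TTTCCCGC), CHR letters (TTTGAA, or with a central CG the form TTCGAA) and the CCAAT box. Both strands were searched, and a match on the other strand appears as its reverse complement.
Top2a: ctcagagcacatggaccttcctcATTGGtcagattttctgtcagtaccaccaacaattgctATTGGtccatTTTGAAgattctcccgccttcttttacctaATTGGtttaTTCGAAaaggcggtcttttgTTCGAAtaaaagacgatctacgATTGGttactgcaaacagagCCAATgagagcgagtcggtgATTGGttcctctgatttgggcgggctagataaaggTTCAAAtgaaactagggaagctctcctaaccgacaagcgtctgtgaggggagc
Cdk1: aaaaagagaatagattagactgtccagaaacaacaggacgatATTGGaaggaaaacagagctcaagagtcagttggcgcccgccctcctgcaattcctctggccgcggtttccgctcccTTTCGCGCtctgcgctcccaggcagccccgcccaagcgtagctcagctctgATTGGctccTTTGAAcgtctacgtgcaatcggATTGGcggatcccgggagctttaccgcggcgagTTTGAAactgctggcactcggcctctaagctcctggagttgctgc
Cdk2: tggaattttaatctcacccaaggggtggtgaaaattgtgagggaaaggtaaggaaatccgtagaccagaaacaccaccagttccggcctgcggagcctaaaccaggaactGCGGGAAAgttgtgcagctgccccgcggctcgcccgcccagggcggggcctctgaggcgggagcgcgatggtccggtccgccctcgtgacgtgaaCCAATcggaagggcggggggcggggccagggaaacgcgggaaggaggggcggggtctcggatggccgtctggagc
Mcm5: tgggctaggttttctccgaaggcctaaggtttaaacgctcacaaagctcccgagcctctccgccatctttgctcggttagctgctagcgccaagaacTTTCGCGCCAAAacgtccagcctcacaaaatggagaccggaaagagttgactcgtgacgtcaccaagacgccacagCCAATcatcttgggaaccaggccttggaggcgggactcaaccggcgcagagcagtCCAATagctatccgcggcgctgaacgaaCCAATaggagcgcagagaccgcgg
Mcm6: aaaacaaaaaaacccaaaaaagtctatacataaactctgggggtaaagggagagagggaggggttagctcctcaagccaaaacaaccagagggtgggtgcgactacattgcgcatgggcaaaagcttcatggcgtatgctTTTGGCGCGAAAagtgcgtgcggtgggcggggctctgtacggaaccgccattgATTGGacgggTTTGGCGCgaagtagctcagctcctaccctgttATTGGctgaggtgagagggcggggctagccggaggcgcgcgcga
Cdc20: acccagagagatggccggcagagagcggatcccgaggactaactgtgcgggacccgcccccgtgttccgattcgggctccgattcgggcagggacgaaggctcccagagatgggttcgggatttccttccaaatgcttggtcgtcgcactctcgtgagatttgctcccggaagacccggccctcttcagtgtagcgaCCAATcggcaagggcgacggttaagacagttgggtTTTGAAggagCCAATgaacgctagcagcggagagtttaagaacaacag

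Read 5′ to 3′, Mcm6 and Mcm5 each carry an E2F match on both strands that overlap in 1 run, and Mcm6 has another closer to its start. Cdk1 has E2F letters, CHR letters and CCAAT together. Cdc20 and Top2a hold CHR letters beside CCAAT and none of the E2F letters, and Top2a has the most matches of all promoters on the list, with 4 CHR and 6 CCAAT matches. Cdk2 has 1 E2F match on the other strand and 1 CCAAT.

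Over the list, 28 of 36 genes had a promoter in the RefSeq table of the same build, read over the whole window of 300 bases (250 before and 50 after the start). E2F letters were present in 11 of these 28 genes (39.3%), compared with 2.80% of 17274 protein-coding genes. CHR letters were present in 12 genes (42.9% against 19.8% of all genes), and CCAAT in 21 (75% against 42.7%). Birc5, Ccne1, Chek1, E2f1 and Tyms held none of the 3 kinds (17.9%), against 45.6% of all genes.

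The letters were spread unevenly over the roles, a difference that was not tested. Of 8 replication genes, 6 held E2F letters (Cdc6, Cdt1, Mcm3, Mcm5, Mcm6 and Mcm7) and 2 held CHR letters (Mcm2 and Mcm7). Of 5 mitosis genes, 0 held E2F letters and 4 held CHR letters (Aurka, Bub1, Cdc20 and Plk1), each with CCAAT as well. Both proliferation markers held CHR letters with CCAAT. Among 17 further mitosis genes that are not on the list, 0 held E2F letters and 11 CHR letters. E2F letters were in only 2.80% of all genes, so 0 in sets this small does not set mitosis genes apart. Among 23 further genes of replication origins and forks, 7 held E2F letters (30.4%, against 2.80% of all genes). CHR letters were in 6 of them (26.1%, against 19.8% of all genes). A match describes letters only, and the words searched are short forms of longer and looser motifs. Promoters of the list were richer in CpG, with a median ratio of observed to expected CpG of 0.935 against 0.574 over all promoters. GC content was close (57.7% against 56.7%). Every E2F word holds a CpG, and the shares over all genes were not matched for CpG or for a start peak.

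**Figure D1:**
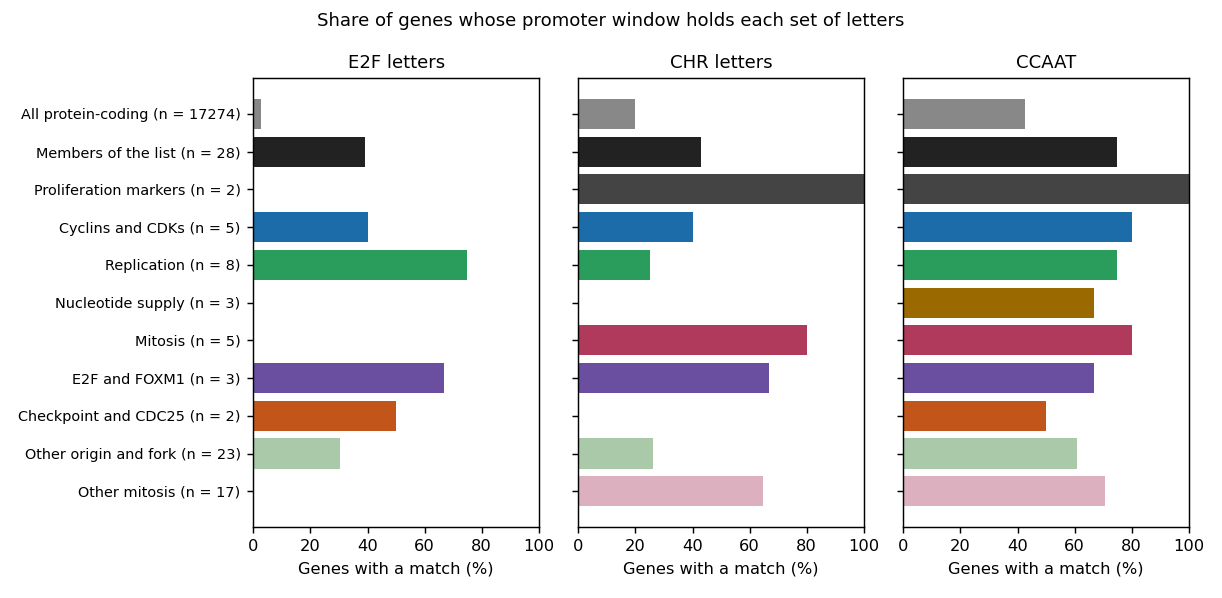
Percent of genes (x axis, 0 to 100) whose promoter window holds E2F letters, CHR letters or CCAAT, for all protein-coding genes, the list, each role and 2 lists of further cell cycle genes, with the number of genes in brackets. E2F letters stand highest for replication genes (75%) and are at 0 for the 5 mitosis genes, against 2.80% of all genes. In mitosis genes CHR letters reach 80%, against 19.8% of all genes.

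Nearly all of these letters lay inside the peak at the gene start, which the search itself made likely for any letters. It covered only 250 bases before to 50 after the start, and these peaks had a median width of 1237 bp. No share for other letters or other genes is given here. The counts therefore do not set E2F, CHR or CCAAT letters apart. Of 16 E2F matches 15 fell inside the deposited peak at the gene start in all 7 libraries, as did 17 of 18 CHR matches and 47 of 51 CCAAT matches. The exceptions belonged to E2f2, whose peak was read at different starts in different libraries, as described with the factors. Some E2f2 letters also lay outside the peak at the start where it was read. Its first start was read in 3 libraries, and the E2F match there lay inside the peak in 1. The median distance from the peak summit was 117.5 bp for E2F letters, 64.0 bp for CHR letters and 47.0 bp for CCAAT. Among the 28 genes with a known strand, the summit lay within 100 bp of the listed start in 19 and within 200 bp in 25.

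Accessibility at a gene start was read from the best peak with its summit within 1 kb of the start. For Aurkb, Ccna2, Ccne2, Cdc25c, Foxm1, Gins1, Mcm4 and Wee1 the strand was unknown, so either gene end could stand for the start. Peaks were scored by the authors' −log10 q in column 9 of the peak lists. Scores cannot be set against each other across lists of different length. They were therefore turned into a rank percentile within each library, among the 12832 genes that had such a peak in all 7 libraries (59.3% of protein-coding genes), where 50 is the middle and 100 the strongest. Lists held 62977 to 88861 peaks, read depth is unknown, and the lists of Allo 3 and Allo 4 are named by another scheme than the rest. A start peak was present in every library at 8 of 9 stem cell or epithelial markers, Lgr5 included, the exception being Ascl2. Of 12 leukocyte markers only Cd4 had one in 6 libraries, and Allo 3 had one at Ptprc as well.

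The starts of the cell cycle genes were open in both groups. A start peak was found in all 7 libraries for 35 of 36 genes (97.2%). The exception, cyclin E2 (Ccne2, a partner of Cdk2 at entry into replication), had one in 6 libraries. In Allo 4 its peak overlapped the same region, but with a summit just outside the window. Its percentile in each library's own list was 93.0, 92.0 and 94.0 in Syn 1 to 3 and 91.3, 93.7, 93.1 and 91.3 in Allo 1 to 4. The groups overlapped.

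The starts also stood high among open genes, by a median rank of 68.6 against 50.3 over all genes. Of the 35 genes, 25 (71.4%) ranked above 50, 14 (40.0%) above 75 and 1 (2.86%) below 25, where all genes gave 50.3%, 23.9% and 24.3%. By role, cyclins and kinases had the highest median rank (82.3 over 6 genes), followed by replication (64.0 over 10), checkpoint (62.5 over 4), markers (60.6 over 2), mitosis (60.5 over 6), factors (57.5 over 4) and nucleotide supply (42.3 over 3). Further cell cycle genes off the list had a median of 71.1 over 82 genes. No test was made of these orders, since neighbouring genes and shared peaks make genes dependent.

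**Figure D2:**
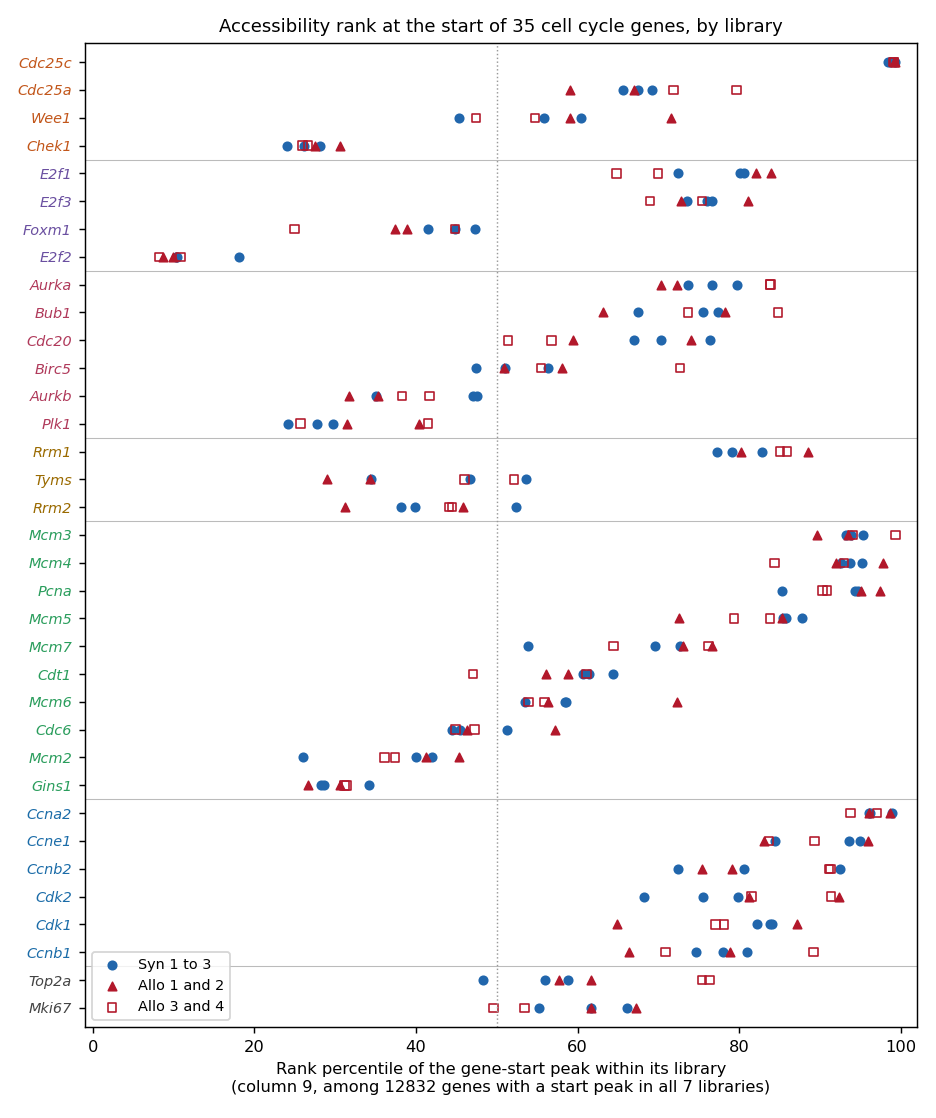
Rank percentile (x axis) of the start peak of 35 genes, 1 row a gene coloured by role, with a circle for each Syn library, a filled triangle for Allo 1 and 2 and an open square for Allo 3 and 4. The dotted line is 50, and 25 genes have a mean to its right. Circles and red symbols mix in nearly every row, Cdk2 and Mcm5 being the 2 rows where they do not.

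Between the groups, the starts did not pass the test. By limma with Benjamini-Hochberg adjustment over all 12832 genes, 0 of 35 genes were called at an adjusted p of 0.05, with adjusted p-values of 0.308 to 0.999. Over all genes 8 were called (0.0623%), 1 higher in Allo (0.00779%) and 7 lower (0.0546%). At an unadjusted limma p under 0.05 there was 1 gene of the list (2.86%), Cdk2, against 10.2% of all genes. The 3 Syn and 4 Allo values did not overlap for 1 gene higher in Allo (Cdk2, 2.86%, background 5.05%) and 1 lower (Mcm5, 2.86%, background 4.96%). Differences ran from −10.8 points (Cdc20) to 13.4 points (Top2a), 17 above 0 and 18 below, with a median of −0.0136 points against −0.00828 over all genes. A difference over 10 points was seen for 3 genes (8.57%) and for 9.16% of all genes. In simulated data the same test called 48% of starts moved by 20 points and 9% of those moved by 10, so differences of the size seen here were mostly below what it finds. A p that misses the threshold does not show that the groups were alike.

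**Figure D3:**
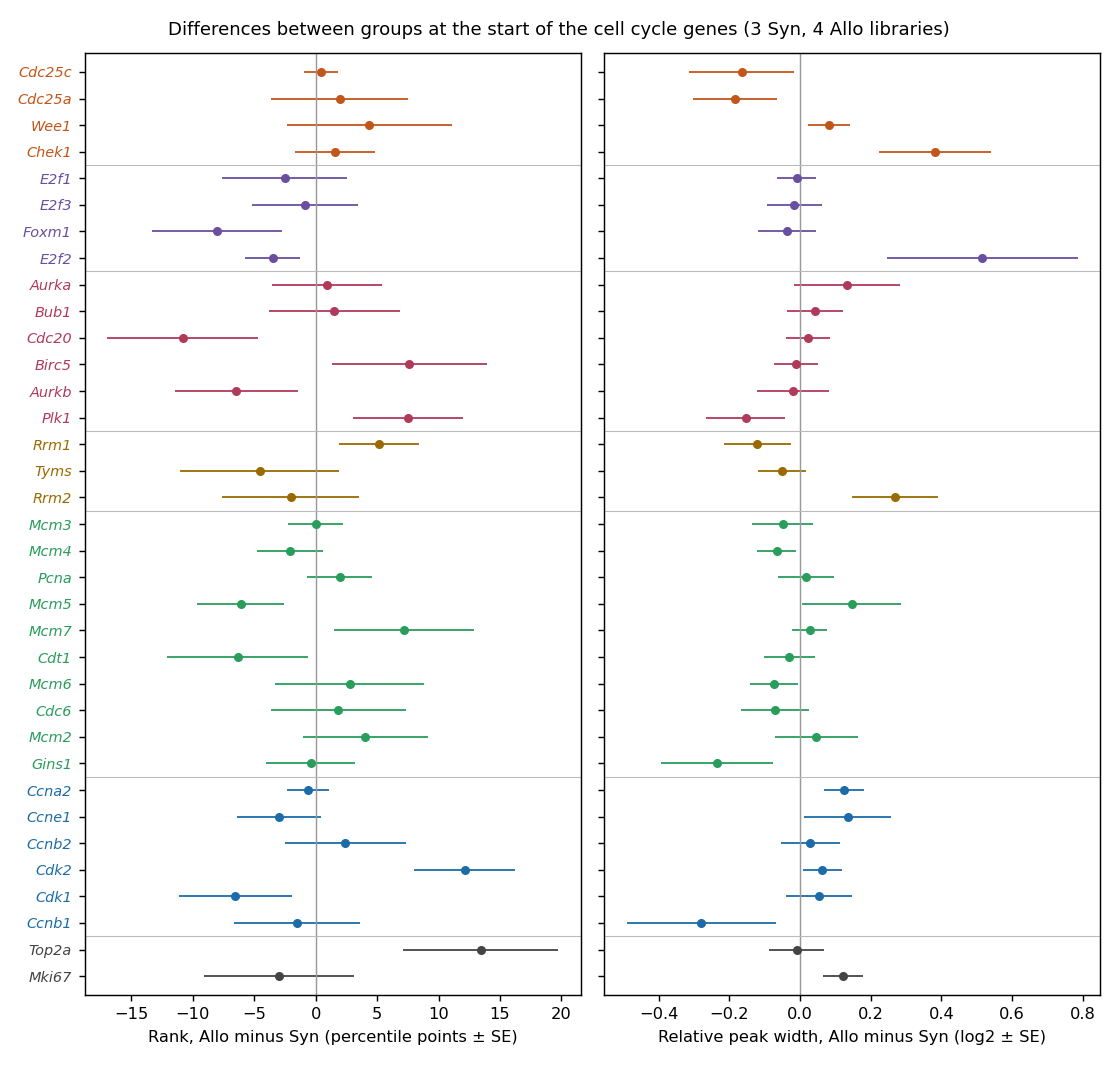
Allo minus Syn (x axis) for the start of 35 genes, in rank percentile points on the left and log2 relative peak width on the right, as the limma estimate with its standard error (bars). Rank estimates run from −10.8 for Cdc20 to 13.4 for Top2a. All 4 factors lie below 0 in rank and all 4 checkpoint genes above it. The other roles scatter on both sides, as every role does in width.

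Among the proliferation markers, topoisomerase II alpha (Top2a, which untangles DNA before mitosis) had ranks of 48.3, 58.8 and 55.9 in Syn 1 to 3 and 61.7, 57.7, 76.3 and 75.4 in Allo 1 to 4. Allo 3 and 4 were the high libraries, while Allo 2 lay within the Syn range. The Allo mean was 13.4 points higher (SE 6.30, limma adjusted p = 0.489). Mki67, which encodes the Ki-67 antigen of dividing cells, ranked 55.2, 66.1 and 61.7 in Syn and 67.2, 61.7, 49.6 and 53.4 in Allo. Here Allo 3 and 4 were the lowest, the reverse of Top2a, and the difference was −3.00 points (SE 6.13, limma adjusted p = 0.917). Without Allo 3 and 4 it was 3.46 points.

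Cyclins and kinases held strong starts. Cyclin A2 (Ccna2), which drives replication and entry into mitosis, ranked 98.9, 96.1 and 96.1 in Syn and 96.1, 98.6, 97.1 and 93.8 in Allo, the second highest mean on the list (96.7). The summit of this peak lay inside Ccna2, just within 1 kb of its listed end, and the gene Exosc9 meets Ccna2 at the opposite end. Cdk2, the kinase of the cyclin E and A complexes, ranked 68.2, 79.9 and 75.5 in Syn against 81.2, 92.4, 81.5 and 91.4 in Allo. Every Allo library stood above every Syn library, by 12.1 points on average (SE 4.09, limma adjusted p = 0.308). The Cdk2 summit lies just outside the listed Cdk2 gene and inside Pmel, a pigment cell gene that spans Cdk2. The assignment rule therefore counted its region for Pmel and not for Cdk2, although the peak can be credited to either gene. Cdk1, the kinase of mitosis, ranked 82.2, 83.8 and 84.1 in Syn and 64.9, 87.1, 78.1 and 77.0 in Allo, where Allo 1 was far lower and Allo 2 above all Syn libraries (difference −6.53 points, SE 4.59).

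Of the other cyclins, Ccne1 had a mean rank of 89.3, Ccnb2 of 83.2 and Ccnb1 of 77.0. Cyclin B1 (Ccnb1), the partner of Cdk1, varied in width. Its start peak spanned 1675, 1688 and 1791 bp in Syn, 957 and 1084 bp in Allo 1 and 2, and 1975 and 1788 bp in Allo 3 and 4. Allo thus held the narrowest peaks and the widest one, and the split within Allo followed the naming of the lists. The relative width differed by −0.28 on the log2 scale (SE 0.21, limma adjusted p = 0.914). Without Allo 3 and 4 it was −0.64 and passed limma's test, and without Allo 1 and 2 it was 0.085.

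The replication genes split into strong and weak starts. Of the MCM helicase, the ring that unwinds DNA at origins, Mcm3 (mean rank 94.1), Mcm4 (92.7) and Mcm5 (82.9) ranked high, Mcm7 (69.5) and Mcm6 (58.4) in the middle, and Mcm2 (38.3) low. Their start peaks also differed in width, from 615 bp on average at Mcm2 to 1710 bp at Mcm7. Pcna, the sliding clamp of the polymerases, had a mean rank of 92.6. The licensing factors Cdt1 (58.5) and Cdc6 (48.1), which load the helicase, were lower. Gins1, a part of the active helicase, was lowest of the group (30.1) and had the narrowest start peak on the list, 578 bp on average.

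Mcm5 was the gene with the lower Allo values, at 85.8, 85.4 and 87.8 in Syn and 85.3, 72.6, 83.8 and 79.4 in Allo. Allo 1 missed the lowest Syn value by a fraction of a point, and the difference was −6.10 points (SE 3.54, limma adjusted p = 0.580). Mcm7 ranked 69.6, 53.9 and 72.7 in Syn and 76.6, 73.0, 76.2 and 64.4 in Allo, with 1 low library in each group (difference 7.18 points, SE 5.73, limma adjusted p = 0.714). Mcm4 begins next to Prkdc and Mcm7 next to Ap4m1, and 1 peak covers both starts of each pair. The summit of the Pcna region lay nearer to the listed edge of the gene Cds2 than to Pcna, so by the assignment rule Pcna held 0 regions.

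Nucleotide supply genes had mixed starts. Rrm1 and Rrm2 encode the subunits of ribonucleotide reductase, and Tyms makes thymidylate. Rrm1 ranked 77.3, 82.8 and 79.2 in Syn and 80.2, 88.5, 85.0 and 85.9 in Allo, overlapping through Syn 2 (difference 5.17 points, SE 3.27). Tyms ranked 53.7, 46.7 and 34.4 in Syn and 34.3, 29.0, 46.0 and 52.1 in Allo, so that both groups spread over about the same range (difference −4.56 points, SE 6.46). Rrm2 had the same mean rank as Tyms (42.3) but 10 regions in all.

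Mitosis genes ranged from 77.2 (Aurka, a spindle pole kinase) and 74.3 (Bub1, a spindle checkpoint kinase) to 39.5 (Aurkb, of the chromosomal passenger complex) and 31.5 (Plk1, a kinase of mitotic entry). Cdc20, which activates the anaphase-promoting complex, had the lowest difference on the list. It ranked 67.0, 76.3 and 70.4 in Syn and 74.1, 59.4, 51.4 and 56.8 in Allo. Allo 2, 3 and 4 were under the Syn range while Allo 1 lay within it (difference −10.8 points, SE 6.15, limma adjusted p = 0.568). Plk1 ranked 27.8, 29.7 and 24.2 in Syn and 31.4, 40.3, 25.7 and 41.5 in Allo, with Allo 3 inside the Syn range (difference 7.5 points, SE 4.46, limma adjusted p = 0.584). Birc5, which encodes survivin of the same passenger complex, had a mean rank of 56.0. The Aurka peak covers the start of Cstf1 too.

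Of the factors, E2f1 (mean rank 76.3) and E2f3 (74.9) ranked high, Foxm1 was at 40.0 and E2f2 was lowest on the list at 10.9. All 3 E2F genes encode activators of replication genes. Foxm1 ranked 47.3, 44.9 and 41.5 in Syn and 38.9, 37.3, 44.8 and 24.98 in Allo, with only Allo 3 inside the Syn range (difference −8.06 points, SE 5.28, limma adjusted p = 0.633). Its peak is shared with the start of Rhno1, and the assignment rule did not count it among the regions of Foxm1.

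E2f2 has 2 listed starts, at positions 136172274 and 136180782 of chromosome 4, both with a peak in every library. The stronger peak was at the first start in Allo 1, 2 and 3 and at the second in all Syn libraries and Allo 4, so its ranks (18.1, 10.3 and 10.4 in Syn, 9.94, 8.76, 10.9 and 8.18 in Allo) join 2 sites. Taken apart as regions open in all 7 libraries, ranked among 50324 such regions, the second start had ranks of 53.7, 38.1 and 37.6 in Syn and 34.1, 29.5, 18.6 and 32.1 in Allo. Every Allo value was below every Syn value there (difference −14.6 points, SE 7.35, limma adjusted p = 0.289). The first start differed by 0.35 points.

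Checkpoint genes held the highest start peak of the list, at Cdc25c. For Cdc25c and Wee1 the strand was unknown, so either gene end could stand for the start. Cdc25c, a phosphatase that activates Cdk1, ranked 99.2, 98.4 and 98.7 in Syn and 99.3, 99.2, 99.1 and 99.2 in Allo. Wee1, the kinase that opposes it, had the widest start peak, 1919 bp on average, and ranked 60.4, 45.3 and 55.8 in Syn and 71.6, 59.1, 54.7 and 47.5 in Allo (difference 4.37 points, SE 6.70, turning to −0.10 without Allo 1). Cdc25a had a mean rank of 68.6.

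Chek1, the kinase that halts the cycle when replication stalls, ranked low and evenly, at 28.1, 24.1 and 26.1 in Syn and 30.6, 27.5, 26.6 and 25.9 in Allo. Ranked among regions open in all 7 libraries, the Chek1 start was higher in every Allo library, as given below. The width of the Chek1 peak varied more, at 1113, 1176 and 1080 bp in Syn and 1023, 1283, 1710 and 1860 bp in Allo. Allo 3 and 4 held the wide peaks and Allo 1 the narrowest. At Ccnb1 Allo 3 and 4 were the wider libraries within Allo only, since Syn 3 (1791 bp) exceeded Allo 4 (1788 bp). The relative width differed by 0.38 on the log2 scale (SE 0.16, limma adjusted p = 0.844).

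Widths over the list gave no call either. Start peaks had a median width of 1237 bp against 1098 bp over all genes. By limma on log2 width relative to the library's median, 0 of 35 genes were called, against 15 of 12832 genes (0.117%, 0.0468% wider and 0.0701% narrower in Allo). Chek1 was the 1 gene (2.86%) at an unadjusted limma p under 0.05, where all genes gave 5.85%. The groups did not overlap for 2 genes wider in Allo, Mki67 and Ccna2 (5.71%, background 3.74%), and for 0 narrower ones (background 2.95%). Mki67 spanned 1139, 1215 and 1225 bp in Syn and 1282, 1162, 1354 and 1279 bp in Allo as deposited, and it separated only once widths were set against each library's median. For Ccna2 the widths were 1204, 1245 and 1264 bp against 1303, 1310, 1330 and 1331 bp.

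Away from the starts the picture was more varied. Of the 131 regions, 79 (60.3%) were open in all 7 libraries, against 48.5% of the 103809 regions of the series. At gene starts this share was 97.2% (35 of 36 regions, against 84.0% for all protein-coding genes), in gene bodies 35.3% (12 of 34, against 42.4%) and in flanks 52.5% (32 of 61, against 44.95%). The 36 start regions belonged to 33 genes, since those of Cdk2, Foxm1 and Pcna were counted for other genes. E2f2 had the most regions (12), followed by Ccne1, Rrm2 and Cdc25a with 10 each, while 12 genes had 1 region. Peaks of these genes made up 14.6 ± 0.640 of every 10000 peaks in Syn (SD, n = 3) and 14.1 ± 1.36 in Allo (SD, n = 4), a difference smaller than the spread.

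A single region passed the test, in the body of Gins1 at chr2:150927010-150927731, 3911 bp from the nearer end of the gene. Its rank among the 50324 regions open in all 7 libraries was 0.163, 5.11 and 1.26 in Syn and 19.7, 31.6, 57.8 and 36.9 in Allo. All 4 Allo libraries were far above the Syn libraries, which lay near the bottom. The mean was 2.18 ± 2.60 (SD, n = 3) in Syn and 36.5 ± 15.9 (SD, n = 4) in Allo, a difference of 34.3 points (SE 7.75, limma adjusted p = 0.0325). It was 1 call in 79 (1.27%, background 2.9%, with 1.33% higher and 1.57% lower in Allo). The difference was 24.3 to 49.2 points on this scale when libraries were left out. The adjusted p was 0.136, 0.0986 or 0.140 without Syn 1, 2 or 3, 0.0651 without Allo 4 and 0.0648 without Allo 3 and 4, so the call rests on each of these.

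Another Gins1 region, at chr2:150918672-150919184, was also higher in every Allo library, at ranks of 19.8, 24.9 and 38.0 in Syn and 47.4, 49.8, 66.6 and 52.8 in Allo. It did not pass (26.6 points, SE 7.62, limma adjusted p = 0.0716). A region between them, at chr2:150924844-150925257 and 1752 bp from the called region, was open only in Syn, where it sat at percentiles 13.6, 21.6 and 4.49 of the libraries' own lists. The Gins1 start itself ranked 28.7, 28.3 and 34.2 in Syn and 30.6, 26.7, 31.2 and 31.4 in Allo. The start values of the groups overlapped. Whether the body regions lie in exons or introns was not read, since the gene table gives gene ends only.

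Of the 79 regions, 12 (15.2%) had an unadjusted limma p under 0.05, against 19.8% of all regions. The groups did not overlap for 8 regions higher in Allo (10.1%, background 8.41%) and 1 lower (1.27%, background 8.86%), the latter being the second E2f2 start. Of the 8, 1 was the Chek1 start (mean ranks of 66.0 in Syn and 70.5 in Allo, limma adjusted p = 0.576), whose ranks among gene starts overlapped. The other 7 lay away from the start. Besides both Gins1 regions these were an Mki67 body region (34.9 in Syn and 54.9 in Allo), an Mcm5 flank region (23.7 and 51.0), an Rrm2 flank region (14.3 and 34.4), an E2f2 body region (24.5 and 42.8) and a Cdk1 flank region (71.4 and 78.8), as mean ranks among regions open in all 7 libraries. None of these 5 passed limma's test, with adjusted p-values of 0.0946 to 0.260. The Mcm5 and Cdk1 flank regions lay 45558 and 45930 bp from the gene starts.

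**Figure D4:**
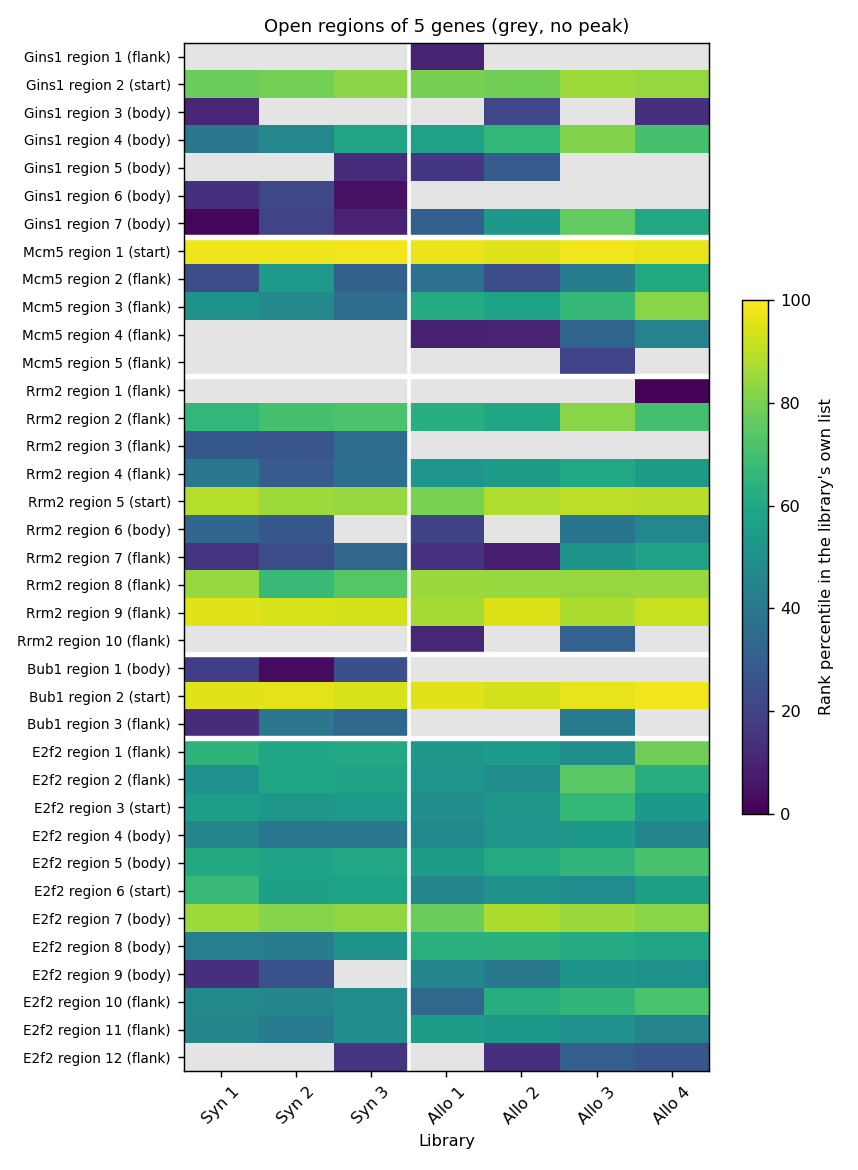
Rank percentile in the library's own peak list (colour, 0 to 100) of every region of Gins1, Mcm5, Rrm2, Bub1 and E2f2 (rows, in order along the chromosome) in the 7 libraries (columns), grey where the library has no peak. Start regions of Mcm5 and Bub1 are bright in all columns, Gins1 region 7 goes from dark to bright from Syn to Allo, and Gins1 region 6, Rrm2 region 3 and Bub1 region 1 are grey in all Allo columns.

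Few regions were confined to 1 group. Of 131, 1 was open in all Allo and no Syn libraries (0.763%, background 1.14%) and 3 were open in all Syn and no Allo libraries (2.29%, background 1.01%). The Allo-only region lay in the flank of Mcm5 at chr8:75155754-75156187, 46432 bp from the start. Its own-list percentiles were 8.72, 10.1, 32.3 and 44.4 in Allo 1 to 4. Allo 3 and 4 held it more strongly. It lies beside the Mcm5 flank region named above, which was open in all 7 libraries and higher in each Allo library.

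The Syn-only regions were the Gins1 one, a region at chr12:24705934-24706241 upstream of Rrm2 and a region at chr2:127802416-127802917 in the body of Bub1. The Rrm2 region had percentiles of 27.6, 26.2 and 34.8, and the Bub1 region of 18.5, 3.12 and 24.3. All were weak peaks in the lower part of their lists. The upstream Rrm2 region is followed by one at chr12:24706743-24707138, 1265 bp before the start, that was open in all libraries and higher in every Allo library (ranks of 19.9, 9.27 and 13.7 against 41.7, 34.3, 32.6 and 29.2).

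Counted per gene, Mcm5 had more regions in Allo (4, 4, 5 and 4) than in Syn (3 in each). The two-sided exact permutation p was 0.0286, the smallest that 3 and 4 libraries allow. The added regions lay 46432 and 60367 bp from the Mcm5 start and belong to Mcm5 only as the nearest gene. Counts were not adjusted for list length, which ran from 62977 peaks (Allo 1) to 88861 (Allo 3). The Mcm5 separation rests on the Allo-only region at 46432 bp. With lists cut to 62977 peaks, or with a −log10 q of at least 5, no region of the list was open only in Allo. Bub1 had fewer (1, 1, 2 and 1 against 3 in each, exact permutation p = 0.0571) and so did Cdc25a (7, 8, 8 and 8 against 9, 9 and 10, exact permutation p = 0.0286). These were 1 gene with more (2.86%, background 2.17%) and 2 with fewer regions (5.71%, background 1.37%), and none of the 3 p-values is adjusted over genes.

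Other genes of the pathway were read in the same way. Of 85 genes not on the list, 82 had a start peak in all 7 libraries, and limma called 0 of them for rank and 0 for width, with 4 at an unadjusted limma p under 0.05 for rank (Cdk4, E2f8, Orc5 and Incenp, 4.88% against 10.2% of all genes). Regions of these genes gave 3 calls in 182 tested (1.65%), a lower share than the 2.9% of all regions. A region of Cdk4, the kinase of the D cyclins, at chr10:127063100-127064380 rose from a mean rank of 77.4 to 86.5 (limma adjusted p = 0.0410). The Cdk4 start, ranked among gene starts, rose from 39.0 to 53.9 without a call (limma adjusted p = 0.338). The distance of the region from that start is not given here, so both may be the same peak. A region of cyclin D1 (Ccnd1) at chr7:144982471-144983320 rose from 31.0 to 59.6 (limma adjusted p = 0.0414). A region of the kinase inhibitor p27 (Cdkn1b) at chr6:134943505-134944298 fell from 36.3 to 9.98 (limma adjusted p = 0.0408). How these 3 calls fare with libraries left out is not reported here.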

How the data were processed

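The authors deposited 1 peak list for each library, with no pooled list. Per the submitters' processing notes the tools were Trim Galore, Bowtie2, MACS2 and MACS3 on mm10, without versions or roles, and libraries were sequenced in pairs of 150 nt. The peak-calling threshold and the read shift, filter or extension behind peak widths are not given in the sources used here. Values used were the deposited −log10 q (lowest 1.30), by rank within a list only, and the deposited fold over background, which served as a description and is not printed. Groups came from the titles.

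Peaks outside chromosomes 1 to 19 and X were dropped, and the rest were merged across libraries by an overlap of at least 1 bp. Genes and promoters came from RefSeq tables of GRCm38.p6. The gene table has no strand, so it came from the promoter table for 28 of the 36 genes (79.9% of all genes), and either gene end stood for the start elsewhere. Ranks and log2 widths were tested with limma 3.58.1 (mean-variance trend, Benjamini-Hochberg over all features at 0.05, two-sided) in R 4.3.3, after a check on simulated data. Matrices and figures used Python 3.11.15, numpy 2.4.6, pandas 2.3.3 and matplotlib 3.10.9. Genes with values in every library are, per role, the 2 with the lowest limma p for rank, those with a region of 1 group only or no start peak in some library, and the extremes of rank, width and region number. Ccna2, Ccnb1, the regions without overlap and the genes named by mean rank were added after their values were seen. The members and lists were chosen with earlier results of these data known. Alternatives tried were lists cut to 62977 peaks, a stricter −log10 q (at least 5), start windows of 500 bp, summit windows of 501 bp, another rank or scale, no trend, uncentred widths, leaving out libraries, and replicate number as a block. Some items are not reported here.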

Additional observations from a re-analysis of the deposited data

Results flagged for a closer look

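Among the 4 Allo libraries, 19 of 95 sets of values had 1 library far from the other 3, by a gap that Dixon's test at 95% puts apart. Chance alone gives about 1 in 20 sets, and 14 of the 19 are numbers of regions, where a difference of 1 region is enough once the other 3 share a whole number.

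By rank at the start, Mcm6 stood at 72.3 in Allo 2 (53.9 to 56.3 in the others) and Rrm2 at 31.2 in Allo 1 (44.1 to 45.9). By peak width, Gins1 had 570 bp in Allo 3 (508 to 515), Wee1 had 1815 bp in Allo 2 (1987 to 1996), and E2f2 had 1657 bp in Allo 3 (695 to 819), where libraries differ in which of 2 starts held the best peak.

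By number of regions, Allo 1 was low at Ccne1 (5 against 8), Cdk1 (4 against 5), E2f2 (11 against 12), Cdc25a (7 against 8) and Cdc25c (1 against 2). Allo 2 was low at Rrm2 (6 against 8) and high at Cdk2 (1 against 0) and Foxm1 (1 against 0). Allo 3 was low at Cdt1 (1 against 2) and high at Mcm5 (5 against 4), Aurka (2 against 1) and Bub1 (2 against 1). Allo 4 was high at Mcm2 (2 against 1) and Birc5 (3 against 2). The cause was not tested.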

How the results depend on the processing

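Rank at gene starts gave 0 calls on the list under every alternative run. Over all genes the count of 8 was 0 to 31 when 1 library was left out, 0 without Allo 3 and 4, 71 without Allo 1 and 2, 3 with a −log10 q of at least 5, 3 with lists cut to the shortest length, 0 for ranks in the own list, 29 on the logit scale and 0 without the trend. For width, 15 genes became 5 to 17 when 1 library was left out, 56 without Allo 3 and 4, 64 without Allo 1 and 2 and 26 uncentred. On the list width gave 1 call without Allo 3 and 4 (Ccnb1, −0.64) and 0 elsewhere. Among regions, 1459 calls became 105 to 3708 when 1 library was left out, 441 without Allo 3 and 4, 5942 without Allo 1 and 2, 934 with cut lists, 232 in own-list ranks and 928 without the trend. The 1 called region of the list became 0 to 6 when 1 library was left out, 6 without Allo 1 and 2, and 0 without Allo 3 and 4, with the stricter threshold, with cut lists, in own-list ranks and without the trend. With the stricter threshold and with cut lists the Gins1 region was not open in every library and was not tested. Of the regions in 1 group only, the Allo count of 1 was 1 to 2 when 1 library was left out, 2 without Allo 3 and 4, 4 without Allo 1 and 2, and 0 with the stricter threshold and with cut lists. The Syn count of 3 was 3 to 4 when 1 library was left out and 1 with the stricter threshold and with cut lists.

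Signs turned for Mki67 (3.46 without Allo 3 and 4, 0.22 in own-list ranks), Tyms (4.09 without Allo 1 and 2), Wee1 (−0.10 to 7.94 with 1 Allo or Syn library left out, the first without Allo 1, and −2.71 without Allo 1 and 2) and the width of Ccnb1 (0.085 without Allo 1 and 2). The cause was not tested. Peaks per 10000 differed by −0.470, and by 0.0248 without Allo 3 and 0.647 without Allo 3 and 4.

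Replicate numbers of the titles gave no clear pairing. Deviations of same-numbered libraries correlated at 0.0390, −0.0275 and 0.0929 for rank and 0.0864, −0.0179 and 0.0409 for width. Differently numbered libraries gave −0.0921 to 0.0586 for rank and −0.112 to 0.0753 for width. Peak names number Allo 1 and 2 as 2 and 3, and a pairing by those numbers was not fitted. With the replicate number of the titles as a block, 0 starts were called by rank, 0 by width and 519 regions, with 0, 0 and 1 on the list.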
